A study of Mus musculus with 35 samples.

Results

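Cytosolic ribosomal protein genes encode the protein parts of the ribosome that translates messenger RNA in the cytosol. They were taken by gene symbol from the table of read counts per gene. The rule kept Rplp0, Rplp1 and Rplp2 and every symbol made of Rpl or Rps, a number and at most a short ending such as a, l or x. It left out the pseudogenes marked -ps and the Rps6k kinases. This gave 82 of the 23366 genes in the table: 31 of the small subunit, 48 of the large subunit and 3 of the P-stalk. Of these, 79 had enough reads to be tested, and the rule used no measured value.

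The study compared mouse cranial neural crest that lacks UTX with cranial neural crest that has it. UTX removes methyl groups from lysine 27 of histone H3, and its gene, Kdm6a, lies on the X chromosome. Tomato-positive cells that excluded the dead-cell dye DAPI were sorted at E12.5 from heads carrying Wnt1-Cre and a Rosa-Tomato reporter. Messenger RNA was sequenced from 2 female knockout libraries (Utx fl/fl with Wnt1-Cre, named here fko1 and fko2), 2 male knockout libraries (Utx fl/y with Wnt1-Cre, mko1 and mko2) and 2 male wild-type libraries (WT with Wnt1-Cre, wt1 and wt2). All 6 libraries thus carry Wnt1-Cre, which limits the deletion to cells of the Cre lineage, and the female knockouts differ from the wild type in sex as well as in genotype. The labels do not say whether the 2 libraries of a group came from separate embryos or from pools, so the p-values measure the spread between libraries, which may be technical.

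Each ribosome carries, as a rule, one copy of most ribosomal proteins, and cells make these proteins in balanced amounts. Their messages are among the most abundant in growing cells and belong to the TOP messages, which start with a C followed by a run of pyrimidines and are translated under the control of mTORC1 and LARP1. In humans, inherited loss of one copy of several ribosomal protein genes causes Diamond-Blackfan anaemia, often with malformations of the face. In mice, cranial neural crest is known to be sensitive to defects of ribosome synthesis.

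The libraries held 14513993 to 16350892 reads on genes. They fell into 2 sets of 3 that cut across the groups. In fko1, mko2 and wt1, between 21.3% and 22.0% of the uniquely placed reads lay on no annotated gene, against 27.5% to 27.8% in fko2, mko1 and wt2. These are called read-assignment sets here, and what made them is not given in the labels. The row of the ribosomal RNA precursor, Rn45s, had 35310 and 29810 CPM (counts scaled to a common library size) in female knockouts and 50820 and 32370 CPM in male knockouts, against 9028 and 3559 CPM in wild type. Kdm6a read at 52.9 and 62.4 CPM in female knockouts and 40.5 and 31.9 CPM in male knockouts, against 45.6 and 51.6 CPM in wild type. Reads were counted along the full gene, so these levels do not test whether an exon was removed. CPM values here are scaled by TMM factors unless a share of reads is named, and they are not corrected for gene length, so no order between genes is read from them.

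Ribosomal protein messages took a larger share of the reads in knockout than in wild-type libraries of the same set. The 82 genes together held 9.78% and 7.62% of all reads on genes in fko1 and fko2, and 8.84% and 7.41% in mko2 and mko1, against 7.55% and 5.59% in wt1 and wt2. The groups overlapped, since wt1 lay above mko1 and just below fko2. Within the set of fko1, mko2 and wt1, the share was 1.30 times (fko1) and 1.17 times (mko2) that of wt1. In the other set it was 1.36 times (fko2) and 1.33 times (mko1) that of wt2.

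Over all libraries the share was 8.41% ± 1.11 in knockouts (SD, n = 4) and 6.57% ± 1.39 in wild type (SD, n = 2), a difference of 1.84 percentage points. An exact two-sided permutation test of 4 knockout against 2 wild-type libraries (15 arrangements) gave p = 0.2, where 0.0667 is the smallest p it allows. Leaving Rn45s out of the reads gave a difference of 2.11 points and an exact permutation p of 0.133. The difference was 0.864 points without wt2 and 2.82 points without wt1. In bulk RNA of this kind, fewer cells of a type and less RNA per cell cannot be told apart.

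**Figure D1:**
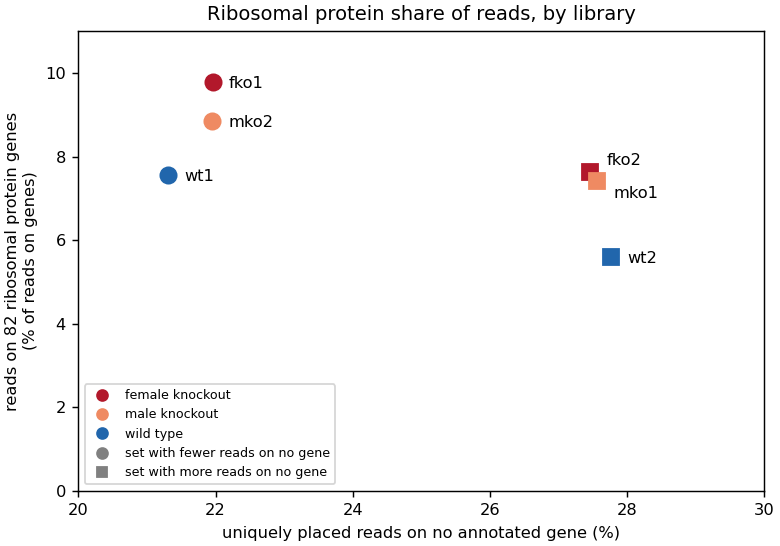
Share of reads on genes that fell on the 82 ribosomal protein genes (vertical axis, %) against the share of uniquely placed reads on no annotated gene (horizontal axis, %), 1 point per library. In each read-assignment set, both knockout libraries lie above the wild-type library, and the set with more reads on no gene lies lower.

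The shift was spread almost evenly over the family. Each member's log2 CPM was set against its own mean over the 6 libraries. The median of the 79 tested members was then 0.43 in fko1 and -0.02 in fko2, 0.25 in mko2 and -0.04 in mko1, and -0.09 in wt1 and -0.55 in wt2. In every library the middle 50% of members spanned a narrow range, for example 0.35 to 0.50 in fko1 and -0.61 to -0.50 in wt2. The members of a library therefore moved as a block, and wt2 was the library farthest from the rest.

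**Figure D2:**
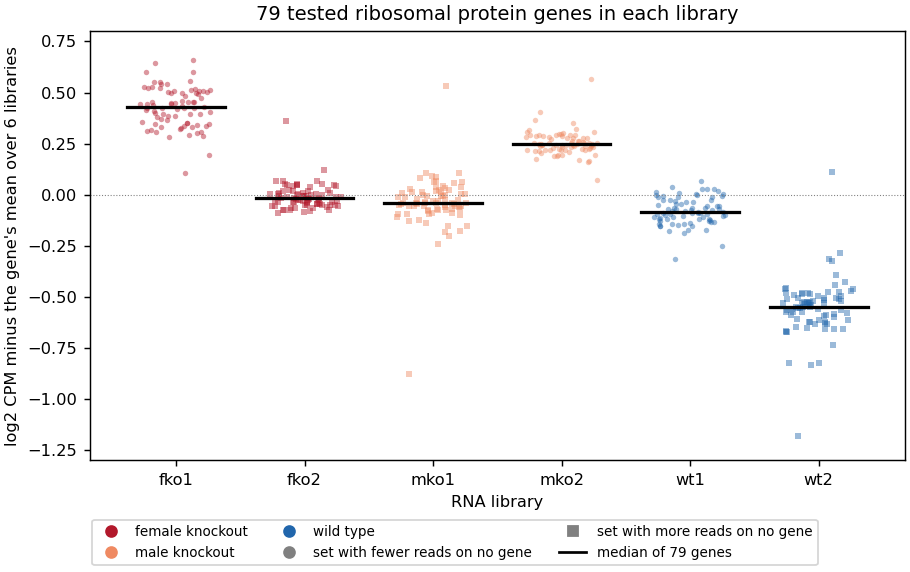
Level of each of the 79 tested ribosomal protein genes in each library, as log2 CPM minus the gene's mean over the 6 libraries. Points are genes, black lines are medians, and the medians run between 0.43 in fko1 and -0.55 in wt2.

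Against wild type, female knockouts had a higher fitted level for 79 of 79 members, with a median log2 fold change of 0.52 and a range of 0.22 to 0.77. Over all 14521 tested genes the median was 0.01 and 51.3% were positive. By edgeR's quasi-likelihood test on 3 group means, with p adjusted over all tested genes, 0 of 79 members passed 0.05, where 1.12% of all tested genes did. Unadjusted p was under 0.05 for 34 of 79 members, where it was for 2845 of all 14521 tested genes. The smallest adjusted p in edgeR was 0.176, for Rplp1. DESeq2 called 4 members and limma-voom 0, where they called 3.58% and 1.22% of all tested genes. Without wt2 the median of the members was 0.27, and without wt1 it was 0.77.

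Male knockouts, which have the sex of the wild type, gave values in the same direction. The fitted level was higher for 78 of 79 members, with a median log2 fold change of 0.41, and the exception was the thinly read Rpl30. In edgeR 0 members passed, against 2.34% of all tested genes. Unadjusted p was under 0.05 for 11 of 79 members, a smaller share than the 2929 of all 14521 tested genes. The smallest adjusted p in edgeR was 0.173, again for Rplp1, and DESeq2 called 2 members and limma-voom 0, where they called 5.26% and 2.11% of all tested genes. The 2 members are thus a smaller share than the background. The median of the members was 0.19 without wt2 and 0.66 without wt1. The female and male contrasts share the 2 wild-type libraries, so they are not independent of each other.

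With the mean of both knockout groups set against wild type, the median log2 fold change was 0.47, or 1.38-fold, and 78 of 79 members were positive. Again 0 members passed in edgeR, where 5.11% of all tested genes did. Unadjusted p was under 0.05 for 41 of 79 members, where it was for 3786 of all 14521 tested genes. The smallest adjusted p in edgeR was 0.0948. DESeq2 called 16 members and limma-voom 0, where they called 7.78% and 4.77% of all tested genes. The size of the shift leaned on the wild-type libraries, with a median of 0.24 without wt2 and 0.72 without wt1. Without wt2 the log2 fold change stayed positive for 79 of 79 members, but for 76 of them it was smaller by a factor of more than 1.5. By CPM alone, all 4 knockout libraries lay above both wild-type libraries for 46 of 79 members and below both for 0, where 18.8% of all tested genes lay above.

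Within a read-assignment set the members did not overlap. In the set of fko1, mko2 and wt1, both knockout libraries lay above wt1 for 79 of 79 members, where 41.3% of all tested genes did so. In the set of fko2, mko1 and wt2, both lay above wt2 for 78 of 79 members, where 43.2% of all tested genes did. The median difference on the log2 scale was 0.50 for fko1 and 0.33 for mko2 against wt1, and 0.54 for fko2 and 0.50 for mko1 against wt2.

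A fit that included the read-assignment set, added after the data were seen and called here the fit with the set term, called most members. In edgeR with that term, 75 of 79 members rose in female knockouts against wild type, where 23.3% of all tested genes were called and 12.2% rose. In male knockouts 70 rose, where 24.7% of all tested genes were called and 12% rose. For both knockouts 75 rose, where 32.6% were called and 16.3% rose, and 0 members fell in any of these 3 contrasts. The median log2 fold changes hardly differed from the planned fit, at 0.52, 0.42 and 0.47, while the median standard error for both knockouts was 0.08 in place of 0.20. The set term itself called 75 members lower in fko2, mko1 and wt2 than in the other 3 libraries, with a median of -0.40, where 14.4% of all tested genes were called and 8.1% were lower.

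These calls leaned on single libraries. Without wt2, the fit with the set term called 20 members in female knockouts, 4 in male knockouts and 21 in both, where 5.86%, 7.59% and 9.45% of all tested genes were called. Without fko1 it called 1 member in female knockouts, where 1.93% of all tested genes were called. The 4 members in male knockouts without wt2 and the 1 member without fko1 are therefore no larger a share than the background. Leaving out fko2 left 25 calls in female and 39 in male knockouts, where 11.4% and 21.3% of all tested genes were called. Leaving out wt1 left 45 in male knockouts, where 13.7% were called. In each of these fits 0 members were called lower, while the fit without mko2 called 76 members higher and 1 lower in male knockouts, where 37.4% of all tested genes were called.

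**Figure D3:**
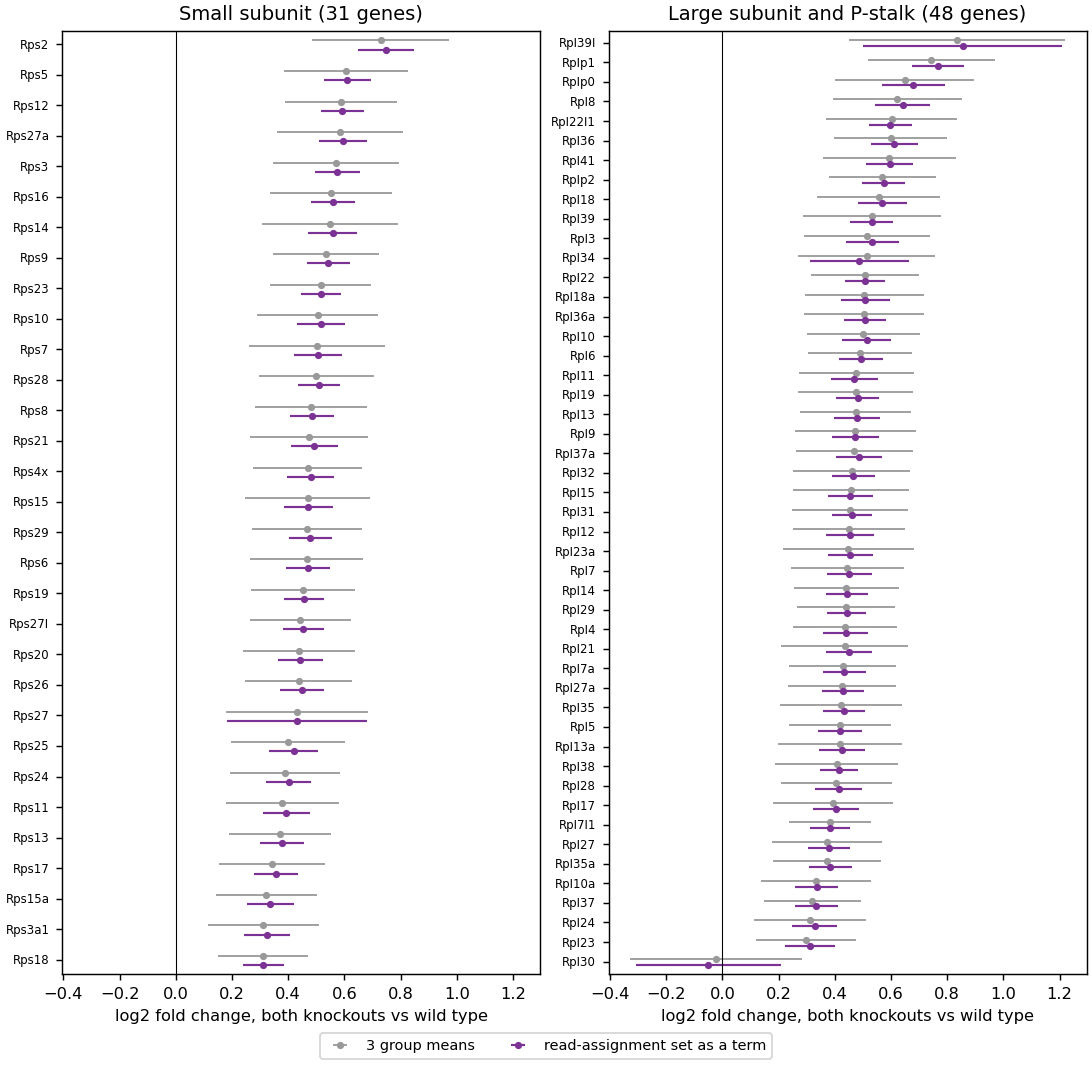
Log2 fold change of each tested member, both knockouts against wild type, with bars of 1 standard error, from the fit on 3 group means (grey) and from the fit that adds the read-assignment set (purple). The points nearly coincide in both fits, and the bars are shorter with the set term. Rpl30, with 27 to 71 reads per library, lies at zero.

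The P-stalk proteins stood at the upper end of the family. The stalk is the flexible arm of the large subunit that calls in translation factors, and Rplp0 is its base, to which Rplp1 and Rplp2 bind as dimers. Rplp1 had 1451 and 1055 CPM in female knockouts and 1101 and 1316 CPM in male knockouts, against 896.9 and 572.6 CPM in wild type. All 4 knockout libraries lay above both wild-type libraries. Its log2 fold change for both knockouts was 0.74 ± 0.22 (SE), with an adjusted p of 0.0948 in edgeR and of 0.00113 with the set term. It was 0.44 without wt2 and 1.11 without wt1.

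Rplp0 had 2855 and 2022 CPM in female knockouts and 2115 and 2423 CPM in male knockouts, against 1877 and 1125 CPM in wild type. Here too the groups did not overlap, although wt1 came close to fko2. For Rplp0 the log2 fold change was 0.65 ± 0.25 (SE), with an adjusted p of 0.151 in edgeR and of 0.00321 with the set term, and it was 0.31 without wt2 and 1.07 without wt1. Rplp2 had a log2 fold change of 0.57 ± 0.19 (SE), with adjusted p of 0.116 and 0.00156 in the same 2 fits.

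Among the 31 small subunit members, all were positive for both knockouts, with a median log2 fold change of 0.47 and a range of 0.31 to 0.73. The upper end was Rps2, a protein near the path by which messages enter the ribosome. Rps2 had 2642 and 1784 CPM in female knockouts and 1941 and 2301 CPM in male knockouts, against 1598 and 1017 CPM in wild type, without overlap. Its log2 fold change was 0.73 ± 0.24 (SE), with an adjusted p of 0.118 in edgeR and of 0.00156 with the set term, and it was 0.42 without wt2 and 1.09 without wt1.

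Rps6, the protein whose phosphorylation by S6 kinase is the usual readout of mTORC1 activity, had 1968 and 1480 CPM in female knockouts and 1546 and 1872 CPM in male knockouts, against 1427 and 1059 CPM in wild type. Every knockout library lay above both wild-type libraries, with fko2 only just above wt1. The log2 fold change of Rps6 was 0.47 ± 0.20 (SE), the middle of the family, with an adjusted p of 0.185 in edgeR and of 0.00332 with the set term. Rps12, with 0.59 ± 0.20 (SE), and Rps23, with 0.52 ± 0.18 (SE), came next to Rps2 by p, at adjusted p of 0.12 and 0.127 in edgeR.

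The lower end of the small subunit held Rps18 and Rps3a1. Rps18 had 1210 and 982.3 CPM in female knockouts and 986.8 and 1112 CPM in male knockouts, against 935.3 and 793.6 CPM in wild type. Its groups did not overlap, and the fitted difference was 0.31 ± 0.16 (SE) on the log2 scale, with an adjusted p of 0.246 in edgeR and of 0.0122 with the set term.

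Of the 45 tested large subunit members outside the stalk, 44 were positive for both knockouts, with a median of 0.45. Rpl36 had 844.2 and 612.7 CPM in female knockouts and 597.1 and 698.8 CPM in male knockouts, against 535.9 and 371.1 CPM in wild type. The 4 knockout libraries lay above both wild-type libraries, and the log2 fold change of Rpl36 was 0.60 ± 0.20 (SE), with an adjusted p of 0.117 in edgeR. Rpl8, which sits near the site where the peptide bond forms, had a log2 fold change of 0.62 ± 0.23 (SE) and an adjusted p of 0.141 in edgeR.

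Rpl5 and Rpl11 bind 5S ribosomal RNA and, when ribosome assembly fails, the p53 inhibitor MDM2. Rpl5 had 1719 and 1322 CPM in female knockouts and 1401 and 1620 CPM in male knockouts, against 1250 and 1018 CPM in wild type. Rpl11 had 1540 and 1040 CPM in female knockouts and 1061 and 1306 CPM in male knockouts, against 988.6 and 786.7 CPM in wild type. For both genes every knockout library was above both wild-type libraries. The log2 fold changes were 0.42 ± 0.18 (SE) for Rpl5 and 0.48 ± 0.20 (SE) for Rpl11, with adjusted p of 0.185 and 0.183 in edgeR.

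Rps19, the gene found mutated most often in Diamond-Blackfan anaemia, had 929.3 and 722.7 CPM in female knockouts and 736.6 and 904 CPM in male knockouts, against 690.1 and 514 CPM in wild type. All 4 knockout libraries were above both wild-type libraries. The log2 fold change of Rps19 was 0.45 ± 0.19 (SE), with an adjusted p of 0.17 in edgeR. Of 18 members on a list of Diamond-Blackfan anaemia genes, 17 were tested and all 17 were positive for both knockouts, with a median of 0.45. None passed the planned fit, and 16 rose with the set term, where 16.3% of all tested genes rose.

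The well-read paralogs followed the family. Rpl22l1, the close relative of Rpl22, had 242.3 and 148.5 CPM in female knockouts and 139.5 and 191.5 CPM in male knockouts, against 139.1 and 97.6 CPM in wild type, so that mko1 and wt1 were level. Its log2 fold change for both knockouts was 0.60 ± 0.23 (SE), with an adjusted p of 0.155 in edgeR and of 0.00138 with the set term. Rpl22 itself had a log2 fold change of 0.51 ± 0.19 (SE), Rps27l of 0.44 ± 0.18 (SE) and Rpl7l1 of 0.38 ± 0.15 (SE). The thinly read paralog Rpl39l had 0.83 ± 0.38 (SE), the highest value of all tested members. In male knockouts alone Rpl39l had 1.11 ± 0.42 (SE). For both knockouts it had 0.29 without wt2 and 1.68 without wt1.

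A few members were read at levels far below the rest, and near-identical pseudogene copies are common for this family, so reads can be lost or split between copies. Rpl30 had 27 to 71 reads per library, Rpl34 92 to 163, Rps27 25 to 40 and Rpl39l 8 to 32. These 4 members did not pass either fit in any contrast. Rpl26 was listed at 0 in all 6 libraries, and Rpl3l and Rpl10l had at most 1 read per library. Those 3 were not tested.

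No member passed the test between female and male knockouts. The median log2 fold change of female over male knockouts was 0.11, where that of all tested genes was 0.02, and 74 of 79 members were positive. In edgeR 0 members passed, where 0.0344% of all tested genes did. Unadjusted p was under 0.05 for 0 members, where it was for 250 of all 14521 tested genes. DESeq2 and limma-voom also called 0, where they called 0.0275% and 0.00689% of all tested genes. The thinly read Rpl30 had the highest log2 fold change of female over male knockouts, 0.48 ± 0.36 (SE), and its groups overlapped. Rps27, also thinly read, had 2.48 and 2.58 CPM in female knockouts, against 1.70 and 2.09 CPM in male knockouts, or 0.41 ± 0.28 (SE). Rpl39l, also thinly read, went the other way, with 1.436 and 1.292 CPM in female knockouts, against 1.976 and 2.025 CPM in male knockouts. Its log2 fold change of female over male knockouts was -0.55 ± 0.40 (SE), the lowest of the members. With the set term and without mko1, 18 members were called, where 2.37% of all tested genes were. This contrast turned with single libraries: its median was -0.15 without fko1, -0.02 without mko1 and 0.30 without fko2.

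The 4 members on the X chromosome, where females carry 2 copies and silence one, are Rpl10, Rpl36a, Rpl39 and Rps4x. Rps4x had 2012 and 1593 CPM in female knockouts, against 1631 and 1890 CPM in male knockouts, and the groups overlapped. Its log2 fold change of female over male knockouts was 0.03 ± 0.22 (SE). Rpl39 had 1057 and 659 CPM in female knockouts, against 598.1 and 820.5 CPM in male knockouts, and also overlapped, with 0.27 ± 0.28 (SE). Rpl10 gave 0.09 ± 0.23 (SE) and Rpl36a 0.20 ± 0.24 (SE), all with an adjusted p of 1 in edgeR. The median over the 4 was 0.15, beside 0.11 for the 75 tested members on autosomes.

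Some members moved more or less than the family. For this description each member's log2 CPM was set against the median of the 79 members in the same library, which takes out the shift they share. The genes named here were picked by these values, so no test is given. The difference between the means of the knockout and wild-type libraries lay between -0.07 and 0.02 for the middle 50% of members.

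Rplp1 stood 0.10 and 0.13 above the family median in female knockouts and 0.16 and 0.19 above it in male knockouts, against -0.05 and -0.22 in wild type, a difference of 0.28. For Rps2 the relative level was 0.97 and 0.88 in female knockouts and 0.98 and 1.00 in male knockouts, against 0.79 and 0.61 in wild type, a difference of 0.26. In both genes all 4 knockout libraries lay above both wild-type libraries. Rplp0 had a relative level of 1.08 and 1.06 in female knockouts and 1.10 and 1.07 in male knockouts, against 1.02 and 0.76 in wild type, a difference of 0.19. Rpl8 had 0.25 and 0.18 in female knockouts and 0.29 and 0.28 in male knockouts, against 0.17 and 0.03 in wild type, a difference of 0.15. Neither overlapped, but wt1 lay close to the knockouts. Against wt1 alone, the mean of the knockouts was higher by 0.19 for Rplp1, 0.17 for Rps2, 0.08 for Rpl8 and 0.06 for Rplp0.

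At the other end, Rps3a1 had a relative level of 0.58 and 0.75 in female knockouts and 0.69 and 0.70 in male knockouts, against 0.85 and 0.84 in wild type, a difference of -0.17. Rpl23 had -0.45 and -0.10 in female knockouts and -0.23 and -0.22 in male knockouts, against -0.06 and -0.09 in wild type, a difference of -0.18. Both lay below wild type in all 4 knockout libraries. Rps18 had the lowest difference of the 75 members read at 100 CPM or more, -0.18, but fko2 lay above wt1.

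**Figure D4:**
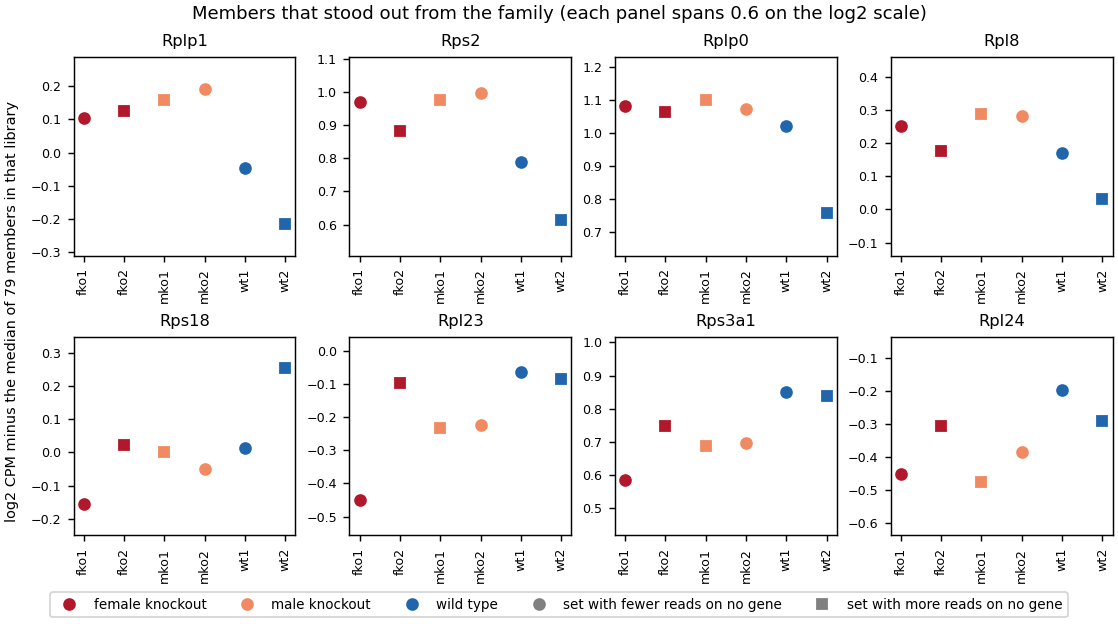
Level of 8 members relative to the family, as log2 CPM minus the median of the 79 tested members in the same library, 1 point per library. The upper row shows the 4 members with the highest difference between knockouts and wild type (Rplp1, 0.28, to Rpl8, 0.15) and the lower row the 4 with the lowest (Rps18, -0.18, to Rpl24, -0.16), among members of at least 100 CPM, and every panel spans 0.6.

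The start sites of the members were searched for the run of pyrimidines that gives TOP messages their name, and some are shown because the family moved as a block. RefSeq promoters on GRCm38.p6 were at hand for 62 of the 82 members. A C at the annotated start followed by at least 4 letters C or T was found in 13 of these members (21.0%), against 3.01% of the 27025 genes with a promoter. Each line gives 15 bases before the start and 15 from it on, on the gene's strand, with the run of pyrimidines from the start in capitals.
Rpl15: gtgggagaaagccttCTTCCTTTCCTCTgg
Rpl35: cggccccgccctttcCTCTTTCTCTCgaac
Rps10: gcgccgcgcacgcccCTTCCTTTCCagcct
Rps6: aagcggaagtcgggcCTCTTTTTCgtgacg
Rps18: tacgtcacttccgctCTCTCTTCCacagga
Rplp2: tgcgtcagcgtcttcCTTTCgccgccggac
Rplp0: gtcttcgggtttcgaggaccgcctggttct
Rps2: aggcagtcgagatctcgcgcttcttggagc

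Rpl15 (minus strand, chr14:18270972-18271001) had the run of 13 letters, Rpl35 (minus, chr2:39005117-39005146) 11, Rps10 (minus, chr17:27635230-27635259) 10 and Rps6 (minus, chr4:86857353-86857382) 9. Rps18 (minus, chr17:33955651-33955680) also had 9 and Rplp2 (plus, chr7:141447636-141447665) 5. Rplp0 (plus, chr5:115559452-115559481) and Rps2 (plus, chr17:24720048-24720077) had no such run at the annotated start. Large shifts occurred without the run (Rplp0 and Rps2) and with it (Rplp2). Small shifts, too, occurred with the run (Rps18) and without it (Rpl23 and Rps3a1). An annotated start can lie some bases from the start used in these cells. A looser search, for a C and at least 6 letters C or T within 25 bases on either side on the gene's strand, found 36 of 62 members (58.1%), against 25.6% of all genes.

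Members with the run at the annotated start did not have the larger shift. For both knockouts the median log2 fold change was 0.43 for the 13 tested members with it and 0.47 for the 46 without. By the looser search it was 0.45 for the 36 tested members with a match and 0.49 for the 23 without. The start used in these cells was not tested, so members without the run can still be TOP messages. Outside the family, the 322 tested genes with the run at the annotated start had a median of 0.01, as did the 10258 without. The letters CCGGAAG, the core of the motif of ETS factors, were searched on both strands of the 300-base promoters and found in 25 of 62 members (40.3%), against 9.93% of all genes and 18% of the 10580 tested genes outside the family. AAGATGG, the core of the YY1 motif, was found in 10 members (16.1%), against 7.28% of all genes and 7.90% of the tested genes outside the family. Where one motif runs into the other, they share the letters AAG. The first of these had a median of 0.47 for the members with it and 0.45 for those without, the second 0.43 and 0.47. Outside the family the medians were 0.06 with the first and 0.00 without it, and 0.05 with the second and 0.01 without it.

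Other genes of protein synthesis were read beside the family. Rpsa and Gnb2l1 (RACK1) encode small subunit proteins whose symbols do not follow the name rule. Rpsa had 2492 and 1927 CPM in female knockouts and 2258 and 2423 CPM in male knockouts, against 1804 and 1083 CPM in wild type, without overlap. Rpsa gave a log2 fold change of 0.66, with an adjusted p of 0.132 in edgeR and of 0.00411 with the set term. Gnb2l1 had 2424 and 1606 CPM in female knockouts and 1671 and 1932 CPM in male knockouts, against 1514 and 935.8 CPM in wild type, also without overlap. The log2 fold change of Gnb2l1 was 0.64, with an adjusted p of 0.156 in edgeR and of 0.00304 with the set term.

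Elongation factors and other TOP messages were positive for 17 of 18 genes, with a median of 0.39. None of them passed the planned fit, and 14 rose with the set term, where 16.3% of all tested genes rose. Eef1g, a subunit of the complex that recharges elongation factor 1A, had 2043 and 1446 CPM in female knockouts and 1533 and 1737 CPM in male knockouts, against 1384 and 926.8 CPM in wild type. The groups of Eef1g did not overlap, and its log2 fold change was 0.55, with an adjusted p of 0.165 in edgeR and of 0.0037 with the set term.

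Mitochondrial ribosomal proteins, which serve the separate ribosome inside mitochondria, were positive for 75 of 76 genes. Their median was 0.33, none passed the planned fit, and 52 rose with the set term, where 16.3% of all tested genes rose. Mrps27 had 57.1 and 41.6 CPM in female knockouts and 46.5 and 51.2 CPM in male knockouts, against 36.2 and 27.5 CPM in wild type, with a log2 fold change of 0.63 and an adjusted p of 0.0696 in edgeR. Positive values were thus not limited to the cytosolic ribosome.

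RNA polymerase I and its factors were positive for 15 of 20 genes, with a median of 0.28 and none past the planned fit. Of these, 10 rose and 1 fell with the set term, where 32.6% of all tested genes were called and 16.3% rose. The 3 with the smallest p, Polr2f, Polr2e and Polr2k, are subunits shared with RNA polymerases II and III. Ribosome biogenesis factors were positive for 36 of 40 genes, with a median of 0.18. None of these passed the planned fit, and 13 rose with the set term, where 16.3% of all tested genes rose. They included Fbl, the methyltransferase of box C/D small nucleolar RNPs, at 180.4 and 145 CPM in female knockouts and 160.9 and 187.2 CPM in male knockouts, against 130.7 and 102.8 CPM in wild type.

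Host genes of small nucleolar RNAs, noncoding TOP messages, did not share one direction. Of 9, 7 were positive, and the median was 0.23. In the planned fit 1 of the 9 was called, Snhg6, where 5.11% of all tested genes were called. Snhg6 rose, at 39.0 and 34.2 CPM in female knockouts and 29.5 and 35.8 CPM in male knockouts, against 21.9 and 20.9 CPM in wild type (log2 fold change 0.69, adjusted p 0.0257 in edgeR). Snhg5 had 61.7 and 55.4 CPM in female knockouts and 56.4 and 64.6 CPM in male knockouts, against 78.2 and 72.1 CPM in wild type (log2 fold change -0.34, adjusted p 0.123 in edgeR).

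The lists of regulators stayed near the median of all genes. Genes of mTORC1, Myc and TOP control had a median of -0.03, with 8 of 17 positive and none past the planned fit. With the set term 2 rose and 2 fell, where 32.6% of all tested genes were called. Mtor itself had 67.5 and 77.9 CPM in female knockouts and 70.1 and 64.2 CPM in male knockouts, against 82.2 and 89.7 CPM in wild type. Genes of p53 and nucleolar stress had a median of 0.06, with 8 of 16 positive. Of the 16, 1 rose in the planned fit, where 5.11% of all tested genes were called. It was Phlda3, a p53 target that inhibits AKT, with a log2 fold change of 0.94 and an adjusted p of 0.0273 in edgeR. With the set term 4 of the 16 rose and 3 fell, where 32.6% of all tested genes were called.

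**Figure D5:**
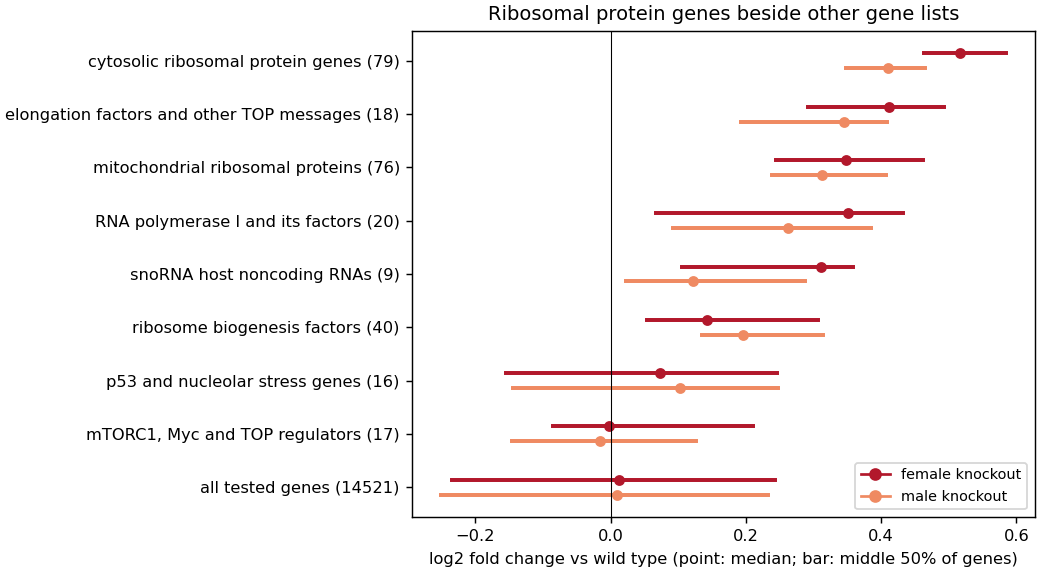
Log2 fold change against wild type of female and male knockouts for the ribosomal protein genes and other gene lists, with the number of tested genes in brackets. Points are medians and bars hold the middle 50% of genes. The ribosomal protein genes have medians of 0.52 and 0.41, beside 0.01 for all tested genes in both contrasts.

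The sorted cells read as neural crest mesenchyme, and most markers of the central nervous system were lower in knockouts. The 16 listed markers of cranial neural crest mesenchyme, Prrx1, Twist1 and Pdgfra among them, summed to 3451 to 4056 CPM in knockouts, against 3682 and 3812 CPM in wild type, and none was at 0 in all libraries. Of these, 14 were positive for both knockouts, with a median of 0.23. In the planned fit 1 of the 16 was called, where 5.11% of all tested genes were. This was Dlx2, which fell, with a log2 fold change of -0.72 and an adjusted p of 0.0379 in edgeR. With the set term 6 rose and 2 fell, where 32.6% of all tested genes were called and 16.3% rose. Col1a2, which makes up a large part of the sum, went the other way, with 1220 and 1323 CPM in female knockouts and 1583 and 1360 CPM in male knockouts, against 1724 and 1759 CPM in wild type. The 16 markers of the central nervous system summed to 194.5 to 232.7 CPM in knockouts, against 340.6 and 416.7 CPM in wild type. Of their 14 tested genes, 9 fell in the planned fit for both knockouts, where 5.11% of all tested genes were called, with Neurog2 at 7.97 to 10.4 CPM in knockouts, against 33.7 and 35.0 CPM in wild type. Positive values were found for 3 of them (Neurog1, Pax2 and En1). With the set term 10 of the 14 fell and En1 rose, where 32.6% of all tested genes were called. En1 had 14.8 and 13.4 CPM in female knockouts and 14.9 and 13.6 CPM in male knockouts, against 11.2 and 8.2 CPM in wild type (log2 fold change 0.55, adjusted p 0.104 in edgeR and 0.0212 with the set term). Erythroid markers summed to 322.9 to 1364 CPM in knockouts, with mko2 the highest, against 310.5 and 515.2 CPM in wild type. Of the 12 erythroid genes, the adult globins Hba-a1 and Hba-a2 were listed at 0 throughout.

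Markers of the remaining types were low. Macrophage and leukocyte markers summed to 7.77 to 10.5 CPM in knockouts, against 12.7 and 14.2 CPM in wild type, without overlap. Skeletal muscle markers gave 3.26 to 6.33 CPM in knockouts, against 7.29 and 7.43 CPM in wild type, again without overlap. For both knockouts the planned fit called 0 of 9 tested macrophage and leukocyte markers, and 2 of the 9 were positive. Of 6 tested muscle markers 1 fell, where 5.11% of all tested genes were called. Endothelial markers gave 21.4 to 27.3 CPM in knockouts, against 20.3 and 22.4 CPM in wild type, and epithelial markers 19.7 to 24.8 CPM in knockouts, against 15.9 and 24.5 CPM in wild type. The part of these cell types in the level of the ribosomal protein genes was not tested. The Rn45s row moved with the groups too, with a log2 fold change of 2.55 for both knockouts and an adjusted p of 0.0186 in edgeR. With that row left out of the library sizes, the median of the members for both knockouts was 0.47, the same as with it.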

How the data were processed

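RNA values are counts of reads per gene, deposited by the authors without normalisation. The submitters' processing notes name Trimmomatic, TopHat2 and HTSeq among the tools, on build mm9, with versions not given in the sources used here. The library kit is a stranded one, per the labels' protocols, but how strand was set in counting, and with which annotation, is not given in the sources used here. HTSeq's 5 summary lines were kept out of library sizes and tests, and reads on no gene made up 21.3% to 27.8% of uniquely placed reads. The chromatin files are not analysed here, since no mm9 annotation was at hand.

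Genes kept by filterByExpr (14521) went into edgeR 4.0.16 under R 4.3.3. A single quasi-likelihood fit with TMM scaling held the 3 groups and all 6 libraries. Benjamini-Hochberg adjustment ran over all 14521 genes, with a threshold of 0.05. DESeq2 1.42.0 and limma 3.58.1 (voom) served as alternatives, and the fit was tested on simulated data with 200 changed genes. Relative and centred log2 CPM used a prior count of 2. Promoters came from RefSeq tables on GRCm38.p6. Plots were drawn with matplotlib 3.10.9 in Python 3.11.15.

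The members, the gene lists and the fits were chosen with earlier results of these data known. Named members are those with the smallest p per subunit and contrast, the extremes, the X-linked members, the paralogs and a few picked by role, and in other lists up to 3 genes by p. Rps18, Rpl23, Rps3a1, Rpl24, Rpl36, Eef1g and the printed start sites were partly chosen after their values were seen. The counts over one gene list are not reported here. The replicate numbers did not pair the libraries.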

Additional observations from a re-analysis of the deposited data

How the results depend on the processing

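The median log2 fold change of the family against wild type was positive under every alternative for which it was computed, while the number of members past the threshold varied. RLE factors, limma-voom, library sizes without Rn45s, no filter on low counts and a fit limited to the compared groups each left 0 members in every contrast they were run for (the last was not run for both knockouts, which uses all libraries). DESeq2 called 4 members in female knockouts, 2 in male knockouts and 16 in both. The set as a term, added after the data were seen, called 75, 70 and 75 in the same order. DESeq2, limma-voom, RLE factors or factors without Rn45s with that term gave 69 to 76, where 13% to 32.9% of all tested genes were called. Leaving out 1 library in turn, the planned fit called 0 to 3 members in female knockouts (3 without wt1 and 3 without fko2), 0 to 2 in male knockouts (2 without wt1), 0 to 10 in both (10 without wt1 and 10 without fko2, where 9.48% and 14.9% of all tested genes were called) and 0 in female against male knockouts. With the set term the same gave 1 to 76, 4 to 77, 21 to 76 and, in female against male knockouts, 0 to 18 (18 without mko1). A fit that leaves 1 library in a group assumes that it varies like the others. The planned calls in female knockouts (without wt1 or fko2) and male knockouts (without wt1) were smaller shares than the background. Those in both were a larger share without wt1 and a smaller one without fko2. With the set term, the fits without mko2 called the largest share of all tested genes in each contrast with wild type. The lowest set-term counts were smaller shares than the background in female and in male knockouts, and a larger share in both. The median log2 fold change ran between 0.27 and 0.77 in female knockouts, 0.19 and 0.66 in male knockouts and 0.24 and 0.72 in both, each lowest without wt2 and highest without wt1. That of female over male knockouts was -0.02 without mko1 and -0.15 without fko1, up to 0.30 without fko2. The share difference ran between 0.864 and 2.82 percentage points. Same-numbered libraries did not deviate together throughout (r of -0.24 for male knockout and wild type, 0.43 for female knockout and wild type and -0.23 for female and male knockout, across genes). The replicate block called 0 members in all 4 contrasts, with medians of 0.52, 0.43, 0.48 and 0.08. A crossed pairing, which equals the read-assignment sets, called 43 members in male knockouts against wild type, where 21% of all tested genes were called. In female against male knockouts it called 0, where 0.112% of all tested genes were called. With 2 libraries a group, and a family whose level differs between the libraries of each group, single members cannot be placed firmly on either side of the threshold.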
